A study of Mus musculus with 2 samples.

Results

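Iron handling was described through 9 genes: the ferritin chains Ftl1 and Fth1, the haem-degrading enzyme Hmox1, the iron exporter Slc40a1, the transferrin receptor Tfrc, the phagosomal metal transporter Slc11a1, the iron scavenger Lcn2, transferrin (Trf) and the ferroxidase Cp. They were taken by their symbols, and each symbol matched 1 of the 31253 measured features. Each gene was counted in single cells of infarcted mouse brain by BD Rhapsody RNA-seq, which tags poly(A) RNA. Tissue was taken on day 3 after the middle cerebral artery had been blocked for a time and reopened (tMCAO), as a stroke model. There were 2 groups of 1 library each, flox controls (called WT in the study's design text) and a conditional knockout of Hilpda (cKO), a gene for a lipid droplet protein. All mice of both groups had the occlusion, and the tissue was digested with collagenase. Animals per library, strain, age, sex, Cre driver and the deleted stretch of Hilpda were not given in the sources used here. No uninjured brain was analysed here, so the values below describe the infarct alone.

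Cells take up transferrin-bound iron through the transferrin receptor, store what they do not use inside ferritin shells built from heavy and light chains, and release it through ferroportin, the product of Slc40a1. Macrophages and microglia that clear dying cells and blood also gain iron from haem, which haem oxygenase 1 (Hmox1) opens into biliverdin, carbon monoxide and free iron. Much of the control is after transcription: the iron regulatory proteins Aco1 and Ireb2 bind hairpins called iron-responsive elements when iron is scarce, which blocks translation when the hairpin lies in the 5′ untranslated region (UTR) and protects the messenger RNA when it lies in the 3′ UTR. UMI counts measure the RNA and not its translation.

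The hairpins are shown because they divide the 9 genes by this mode of control. In transcripts of GENCODE vM21 (build GRCm38, which is mm10), the sense strand of each UTR was searched for a C, a stem of 5 bases, the loop CAGTGN and a pairing stem of 5 bases, with G-U pairs allowed. Of 21901 protein-coding genes, 160 held a match (0.731%), and 4 of the 9 iron genes were among them. A match is a description of the letters and not a measured binding site. The loop is in capitals in each sequence, written 5′ to 3′ on the transcript's strand.
Ftl1, 5′ UTR, chr7:45459780-45459806, minus strand: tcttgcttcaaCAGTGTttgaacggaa
Fth1, 5′ UTR, chr19:9982733-9982759, plus strand: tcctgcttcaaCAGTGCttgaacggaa
Slc40a1, 5′ UTR, chr1:45925466-45925492, minus strand: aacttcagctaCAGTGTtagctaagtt
Tfrc, 3′ UTR, chr16:32631220-32631246, plus strand: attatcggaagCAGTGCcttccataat
Tfrc, 3′ UTR, chr16:32631599-32631625, plus strand: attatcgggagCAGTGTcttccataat
Tfrc, 3′ UTR, chr16:32631664-32631690, plus strand: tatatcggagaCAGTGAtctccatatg
Tfrc, 3′ UTR, chr16:32631711-32631737, plus strand: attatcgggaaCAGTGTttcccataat
The storage and export genes thus carried the hairpin at the 5′ end and the uptake receptor carried 4 of them at the 3′ end. No match was found in the UTRs of Hmox1 (chromosome 8, 75093621 to 75100589), Slc11a1 (chromosome 1, 74375195 to 74386062), Lcn2 (chromosome 2, 32384633 to 32388252), Trf (chromosome 9, 103204001 to 103230444) or Cp (chromosome 3, 19957054 to 20009145). That says only that these letters were not in the annotated UTRs.

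After filtering, 8073 flox cells with a median of 7005 UMIs and 6958 cKO cells with a median of 8759.5 UMIs were kept, from 8593 and 7382 barcodes, of which 56 sequences occurred in both libraries. Cells were clustered without the 9 genes and each cluster was named from fixed markers. All 28 clusters fell into 16 classes, and no cluster was named neuron. All markers of each class were detected in it in both libraries, which is no check of the names because these markers gave them. In dendritic cell-like cells the 11 monocyte or macrophage markers summed to 2691.8 and 2224.9 CPM, beside 2278.8 and 1999.4 CPM for their own 9. Comparison was limited to the 11 classes that held 50 or more cells in both libraries. They ran from 63 flox and 81 cKO neuroblast-like cells to 3710 and 3146 monocyte or macrophage-like cells, and their median depth from 965.5 to 8874 UMIs per cell in flox and from 1300 to 13929.5 in cKO. Hilpda itself was counted in both libraries, at 471 (flox) and 267 CPM (cKO) for macrophage-like cells and at 104 and 220 CPM in microglia-like cells. With the deleted stretch unknown, a 3′ count does not check the genotype. A lone library in each group left no replicate check and no test: library preparation cannot be told apart from genotype, and all intervals are exact 95% intervals that cover counting error only.

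**Figure D1:**
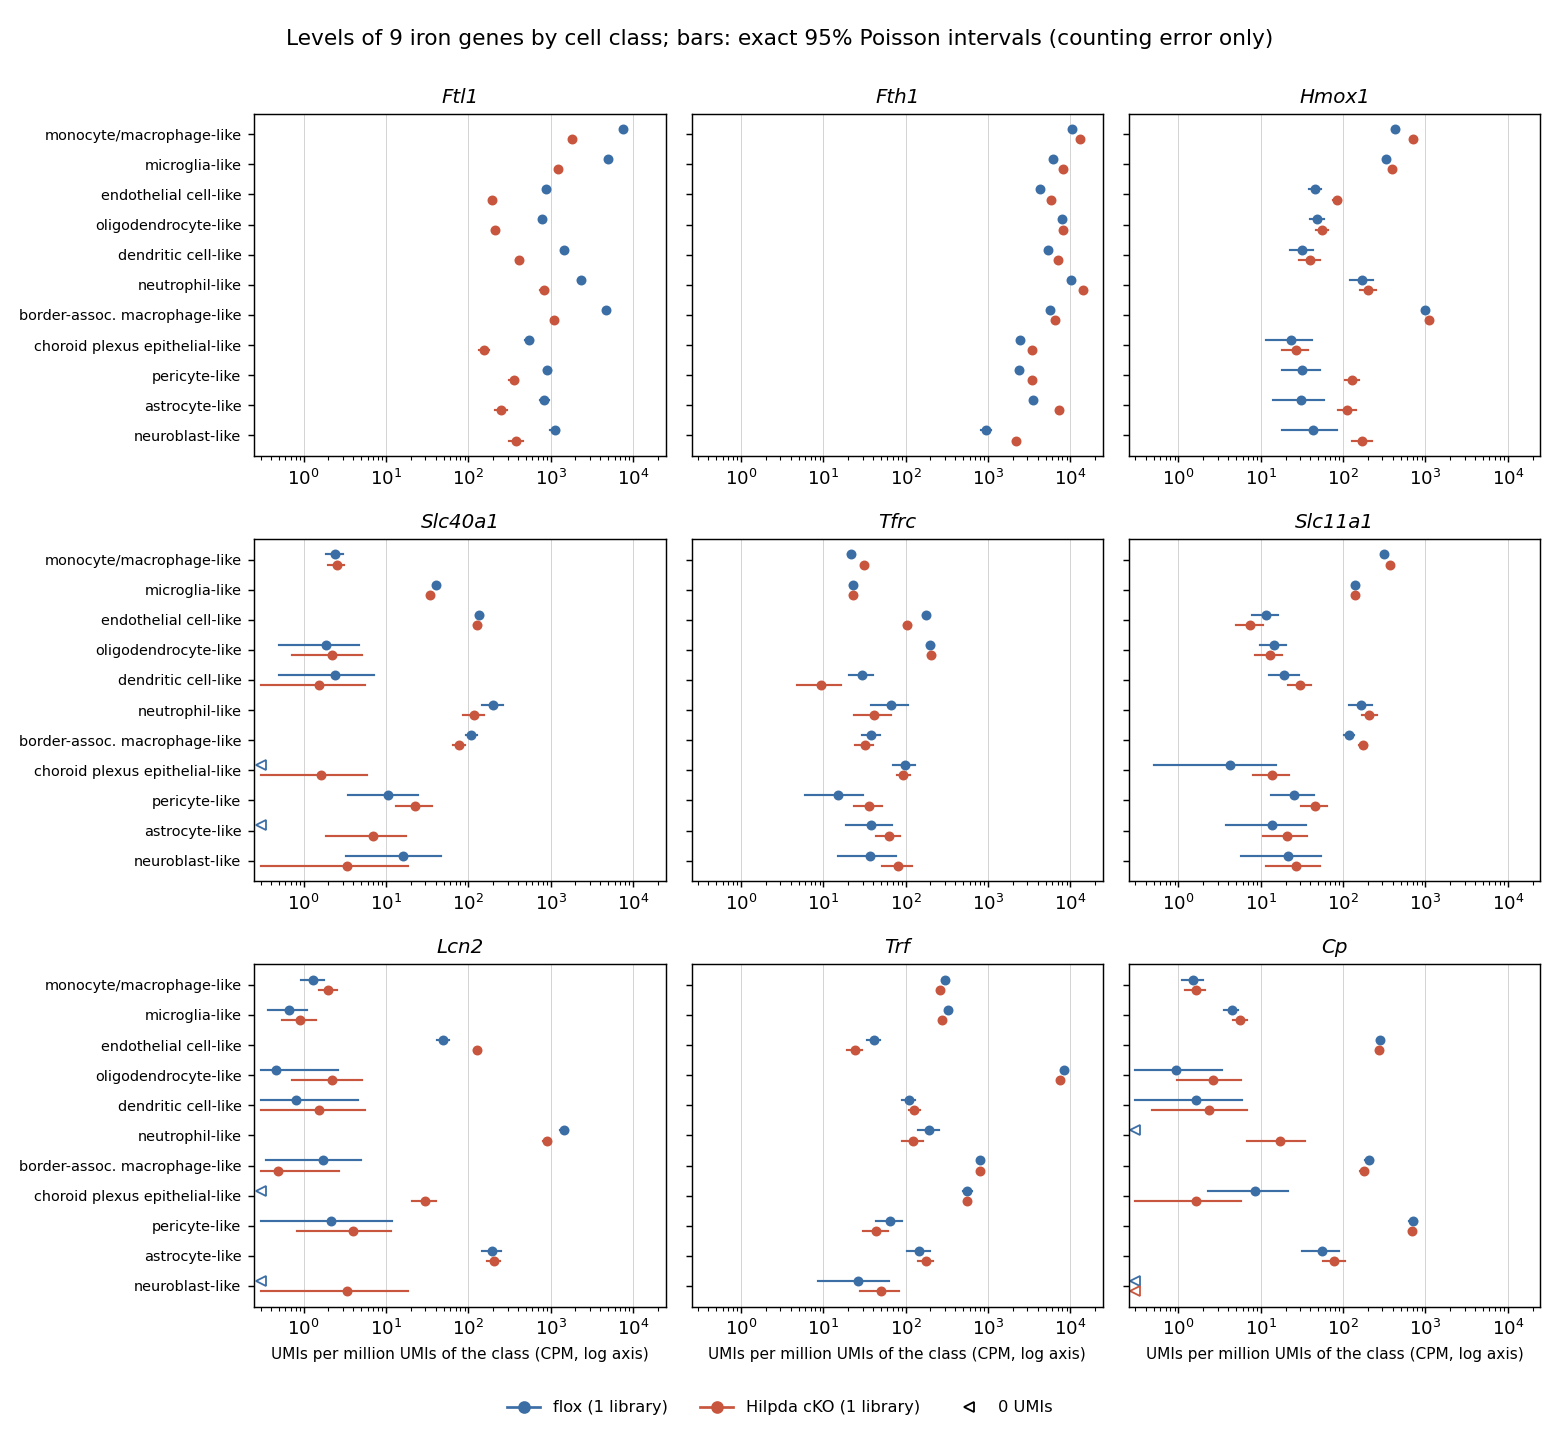
CPM of each iron gene (log axis) in the 11 compared classes, with 1 point per library and exact 95% Poisson intervals, cut at the left edge of the axis; open triangles mark 0 UMIs. Ftl1 sits to the left in cKO in every class, while Trf peaks in oligodendrocyte-like, Lcn2 in neutrophil-like and Cp in pericyte-like cells in both libraries.

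The 9 genes lay in different cell classes, and 7 of them had the same highest class in both libraries. Levels are CPM, the gene's UMIs scaled to the UMI total of the class, and are compared between classes for 1 gene at a time. Ftl1, the light chain that helps iron mineralise inside ferritin, peaked in monocyte or macrophage-like cells (7638.8 CPM for flox, 1809.4 CPM for cKO). Microglia-like cells followed with 4919.9 and 1228.2 CPM, and border-associated macrophage-like cells, the macrophages of the meninges and vessels, with 4753.3 and 1114.4 CPM. The intervals of these 3 classes did not overlap in either library, and choroid plexus epithelial cell-like cells were lowest in both, at 548 and 155 CPM. Fth1, the heavy chain that oxidises iron on entry, was high in all classes. It stood at 10451.5 and 13177.5 CPM in macrophage-like cells and at 10147.8 and 14350.4 CPM in neutrophil-like cells, which overlapped in flox and changed places in cKO. Oligodendrocyte-like cells, whose myelin synthesis uses iron, came next with 7870.1 and 8220.4 CPM, ahead of microglia-like cells at 6140.5 and 8215.7 CPM, with overlapping intervals in cKO. Neuroblast-like cells were lowest, at 950 and 2202.1 CPM. Macrophage-like and microglia-like cells together carried most ferritin UMIs: 64.5% and 30.6% of all Ftl1 UMIs in flox, and 64.6% and 28.9% in cKO.

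Hmox1 was highest in border-associated macrophage-like cells, with 1001.1 CPM for flox and 1096 CPM for cKO. Monocyte or macrophage-like cells had 422 and 698 CPM and microglia-like cells 333 and 395 CPM. These 3 classes stood in the same order in both libraries with intervals apart. Neutrophil-like cells followed at 168 and 202 CPM, and no other compared class exceeded 48.3 CPM in flox. Fibroblast-like cells, under the minimum for comparison, held 0.434% of flox Hmox1 UMIs from 241358 of the 64460988 UMIs of all kept cells. In cKO the intervals of neutrophil-like, neuroblast-like, pericyte-like and astrocyte-like cells, between 202 and 113 CPM, overlapped from each class to the next. With each cell thinned to 1000 UMIs, 53.0% of flox and 55.4% of cKO border-associated macrophage-like cells held an Hmox1 UMI, against 25.5% and 33.2% of macrophage-like and 21.1% and 21.9% of microglia-like cells. Dendritic cell-like cells, taken as a low reference, held one in 4.10% and 2.90% of thinned cells. Before thinning the shares were 86.2% and 89.8%, 75.4% and 80.8%, 71.1% and 78.6%, and 12.7% and 14.5%, at median depths that differed between the libraries.

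Slc40a1, the ferroportin gene, was near 0 in the class that held most of the ferritin UMIs. Macrophage-like cells had 73 and 80 UMIs, 2.37 CPM in flox and 2.52 CPM in cKO, and 0.222% and 0.197% of thinned cells held a UMI. Microglia-like cells stood at 40.6 and 34.5 CPM and border-associated macrophage-like cells at 109 and 77.2 CPM. Endothelial cell-like cells had 136 and 129 CPM, and neutrophil-like cells 197 and 116 CPM from 48 UMIs in each library. The intervals of neutrophil-like and endothelial cell-like cells overlapped in both libraries, so the highest class changed between them without a clear order. The share of thinned neutrophil-like cells with a Slc40a1 UMI was 17.6% in flox and 7.30% in cKO, where the markers of monocytes or macrophages, of which 11 are listed, summed to 1562.1 and 1307.4 CPM. The microglia markers summed to 1414.5 and 1283.4 CPM in neutrophil-like cells. The border-associated macrophage markers summed to 197 and 344 CPM there, and the endothelial cell markers to 148 and 140 CPM. The part of any of these 4 lists in the Slc40a1 level was not tested. In bulk of UMIs, microglia-like cells held 56.0% of all Slc40a1 UMIs in flox and 46.5% in cKO, and endothelial cell-like cells 23.8% and 32.7%. These shares too depend on class size.

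Cp, whose product oxidises the iron that ferroportin releases, was highest in pericyte-like cells, at 708 and 685 CPM. Endothelial cell-like cells had 278 and 276 CPM and border-associated macrophage-like cells 208 and 178 CPM. Those 3 classes kept this order with intervals apart in both libraries. Astrocyte-like cells stood at 55.4 and 77.9 CPM. Macrophage-like cells had 1.49 and 1.61 CPM, and neuroblast-like cells had 0 Cp UMIs in both libraries. Fibroblast-like cells, with 34 flox and 101 cKO cells, were under the minimum for comparison and showed 551 and 267 CPM. In pericyte-like cells the smooth muscle cell markers summed to 4823.4 and 3996.8 CPM and the fibroblast markers to 1688.6 and 1545.9 CPM. Their own markers summed to 16767.0 and 11067.0 CPM, and the part of other cells in their Cp and Hmox1 levels was not tested.

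Tfrc, the receptor through which cells import transferrin-bound iron, was highest in oligodendrocyte-like cells, with 200 CPM for flox and 204 CPM for cKO. Endothelial cell-like cells, which carry transferrin iron across the blood-brain barrier, had 175 and 104 CPM and overlapped with oligodendrocyte-like cells in flox but not in cKO. Choroid plexus epithelial cell-like cells had 96.9 and 94.0 CPM. Macrophage-like cells, the class with the most ferritin UMIs, stood at 21.5 and 31.1 CPM and microglia-like cells at 22.8 and 23.0 CPM. Trf, the carrier itself, is known to be made in brain by oligodendrocytes and choroid plexus. Oligodendrocyte-like cells had 8409.6 and 7425.7 CPM, 10.4-fold and 9.4-fold more than the next class. That class was border-associated macrophage-like cells, at 807 and 790 CPM, followed by choroid plexus epithelial cell-like cells at 558 and 562 CPM. Microglia-like cells (328 and 276 CPM) and macrophage-like cells (297 and 264 CPM) lay below these. In thinned cells, a Trf UMI was found in 83.0% and 68.3% of oligodendrocyte-like cells, in 53.6% and 56.5% of border-associated macrophage-like cells and in 3.11% and 1.95% of endothelial cell-like cells. The border-associated macrophage-like shares were thus far above those of the endothelium.

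Slc11a1 encodes a transporter that moves iron and other divalent metals out of the phagosome and is known from macrophages and neutrophils. It was highest in macrophage-like cells, with 312 CPM for flox and 375 CPM for cKO. Neutrophil-like cells had 164 and 209 CPM, microglia-like cells 139 and 140 CPM and border-associated macrophage-like cells 119 and 174 CPM. No other compared class exceeded 25.5 CPM in flox or 45.1 CPM in cKO. Lcn2, whose product binds the siderophores with which bacteria take iron and which neutrophils store in granules, was highest in neutrophil-like cells, at 1455.5 and 893 CPM. Astrocyte-like cells were second at 194 and 203 CPM and endothelial cell-like cells came next at 49.8 and 127 CPM. In flox astrocyte-like cells 39 of the 56 Lcn2 UMIs lay in 1 cell, and in cKO 30 of 117. Macrophage-like and microglia-like cells had between 0.662 and 1.98 CPM in the 2 libraries.

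The genes whose levels followed each iron gene most closely were sought over 22 profiles, which were the 11 classes in both libraries, among 5245 candidate genes. The profiles share 2 libraries and their depths, so Pearson's r of log2(CPM + 10) is given as a description. Ftl1 was most like Hexa (r = 0.952), which encodes a lysosomal hydrolase, and Fth1 most like Tmbim6 (0.896). Hmox1 was most like Stab1 (0.911), a scavenger receptor gene, and Adgre1 (0.906), which encodes the macrophage antigen F4/80. Slc40a1 was most like Klf2 (0.879) and Arap3 (0.877). Tfrc was most like Cdc37l1 (0.857) and Slc11a1 like Arl11 (0.965). Lcn2 was most like Chil1 (0.849), Trf like Gas7 (0.884) and Cp like Rras (0.908). Among the iron genes themselves, Hmox1 and Slc11a1 were the closest pair (0.86), Ftl1 and Slc11a1 had r = 0.70, and Tfrc and Slc11a1 ran opposite (-0.53).

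The second comparison was between the 2 libraries within each class. A gene was counted as past the size rule when its CPM differed at least 2-fold, the higher library held at least 30 UMIs and the interval of the ratio excluded equal levels. Ratios are log2 of cKO over flox. Over all cells, 1 of the 9 genes was lower in cKO and 0 were higher, where 5.25% and 2.61% of 14165 features were. The same 1 lower and 0 higher were counted in macrophage-like cells (5.29% and 0.666% of features), microglia-like cells (5.86% and 0.565%), oligodendrocyte-like cells (4.91% and 0.899%), border-associated macrophage-like cells (4.72% and 1.22%) and neutrophil-like cells (3.13% and 2.92%). Dendritic cell-like cells had 2 lower and 0 higher (4.77% and 0.532%). There was 1 lower and 1 higher in pericyte-like cells (3.87% and 3.23%), endothelial cell-like cells (6.69% and 0.790%) and the choroid plexus epithelial cell-like class (2.71% and 3.00%). Astrocyte-like cells (3.62% and 4.73%) and neuroblast-like cells (2.61% and 3.87%) had 1 lower and 2 higher. These counts are of the genes with enough UMIs, which were 9 over all cells and in macrophage-like and endothelial cell-like cells, 8 in microglia-like and border-associated macrophage-like, 7 in neutrophil-like and astrocyte-like, 6 in oligodendrocyte-like, dendritic cell-like, choroid plexus epithelial cell-like and pericyte-like, and 3 in neuroblast-like cells. All 3 tested in neuroblast-like cells were past the rule. The lower gene in each class was Ftl1, with Tfrc beside it in dendritic cell-like cells. The median log2 ratio of the tested iron genes was 0.26 in macrophage-like cells, beside 0.01 over all features tested, and 0.02 in microglia-like cells, beside -0.04. With a limit of 1.5-fold, Lcn2 joined Ftl1 over all cells (6.73% of features higher and 9.03% lower), and Hmox1 and Lcn2 joined it in macrophage-like cells (2.68% and 8.92%).

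**Figure D2:**
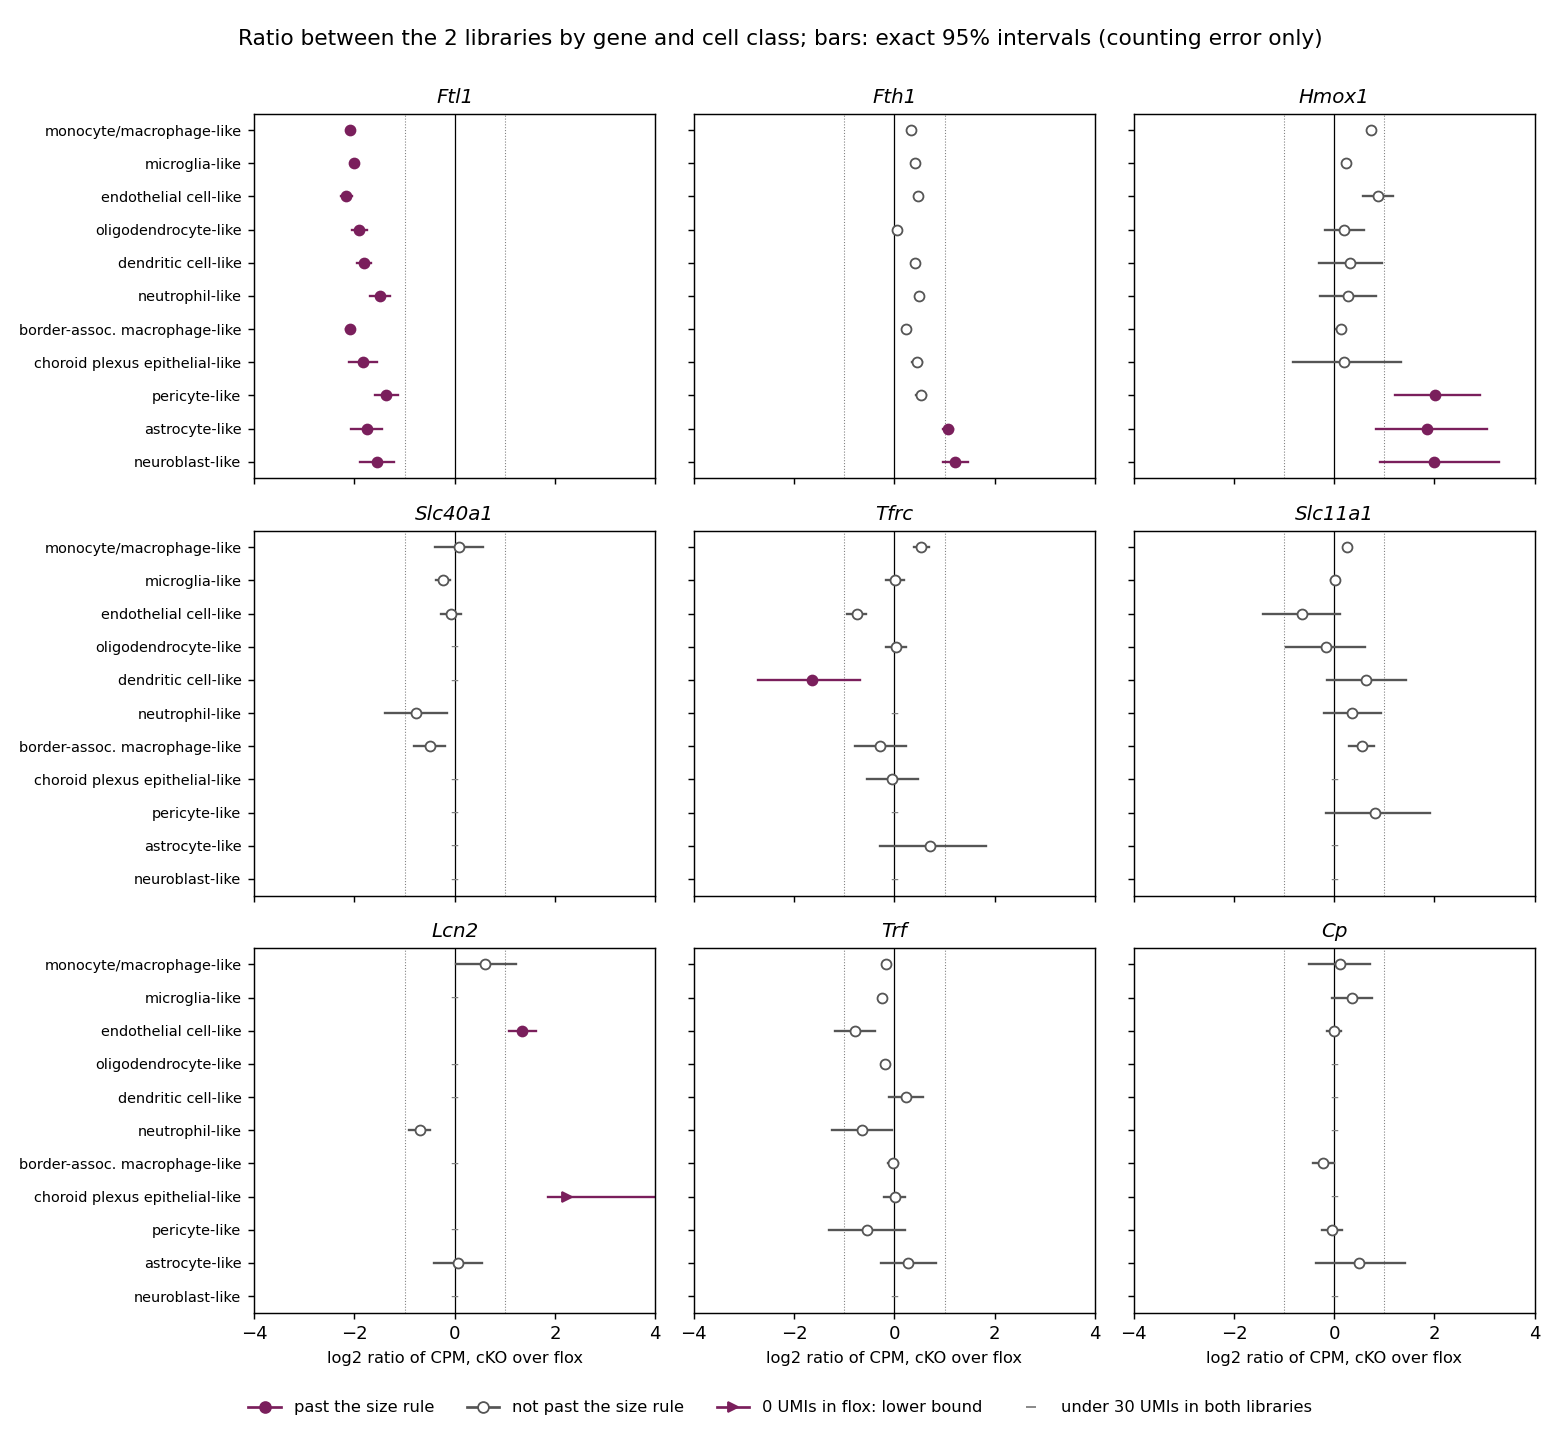
Log2 ratio of CPM (cKO over flox) for each iron gene in the 11 compared classes, with exact 95% intervals; filled points are past the size rule, open points are not, the triangle is a lower bound and grey dashes mark genes with under 30 UMIs in both libraries. Ftl1 is left of -1 in all 11 classes and Fth1 is right of 0 in all 11.

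The 2 ferritin chains went in opposite directions, with smaller ratios for Fth1. Ftl1 (ENSMUSG00000050708, chromosome 7, 45457944 to 45459884) was lower in cKO in 11 of 11 classes, with log2 ratios from -2.16 in endothelial cell-like to -1.36 in pericyte-like cells and a median of -1.82. The Ftl1 ratio moved by over 1.5-fold to -2.68 in neuroblast-like cells with doublets kept, and to -2.11 in neutrophil-like cells with a direct marker gate. In macrophage-like cells the ratio was -2.08 (-2.09 to -2.06, from 235378 and 57469 UMIs) and in microglia-like cells -2.0 (-2.02 to -1.98, from 111561 and 25751 UMIs). Within macrophage-like cells it lay between -2.17 and -1.99 in all 7 clusters, and within microglia-like cells between -2.15 and -1.99 in the 3 clusters with at least 50 cells in each library. The level of Ftl1 itself ranged over these macrophage-like clusters from 3669.5 CPM in the cluster led by Plac8 and Ccr2 to 9918.2 CPM in the one led by Gpnmb and Fabp5 in flox, and from 909 to 2210.8 CPM in cKO. The fold between the libraries was thus close to the same in cells with low and high ferritin.

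Fth1 (ENSMUSG00000024661, chromosome 19, 9980598 to 9985098) was higher in cKO with an interval above 0 in 11 of 11 classes, but past the size rule in only 2. Its ratio was 0.33 (0.33 to 0.34) in macrophage-like cells and 0.42 (0.41 to 0.43) in microglia-like cells, and the lowest was 0.06 (0.03 to 0.09) in oligodendrocyte-like cells. Astrocyte-like cells had 3513.3 and 7325.3 CPM (1.06, 0.96 to 1.16). The 11 macrophage markers summed to 370 and 682 CPM in them, and to 313 and 943 CPM in neuroblast-like cells, and their part in Fth1 was not tested. Neuroblast-like cells had 950 and 2202.1 CPM (1.21, 0.97 to 1.46), from 179 and 661 UMIs, of which 72 and 324 lay in 1 cell of each library. Without those 2 cells the neuroblast-like ratio was 0.99 and no longer past the rule, and it was -0.33 with called doublets kept and -0.22 with cells gated directly by markers. Over the macrophage-like clusters Fth1 lay between 0.23 and 0.45.

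Base composition moved with the library difference and is given beside Ftl1. The last 500 nt of its transcript have 57.8% GC, and genes with 55 to 60% GC there had a median log2 ratio of -0.41 in macrophage-like cells (829 genes, 31.6% of them past the rule as lower) and -0.48 in microglia-like cells (859 genes, 33.5%). Relative to those medians Ftl1 was still -1.67 and -1.52, and 9.29% and 11.8% of the genes in the bin had a ratio at or below its own. In astrocyte-like cells the same bin (183 genes) had a median of 0.00, and Ftl1 stood at -1.75. There 19.7% of the bin was past the rule as lower, beside 3.62% of all features, and 13.7% lay at or below Ftl1. Fth1, with 46.6% GC, was set against medians between -0.01 and 0.16 over the classes. The genes in its bin with a ratio at or below its own ran from 56.4% in oligodendrocyte-like to 97.4% in neuroblast-like cells. The rows also include a near-identical copy, Ftl1-ps1 (chromosome 13, 74399694 to 74407346), whose transcript matched that of Ftl1 at 906 of 910 aligned bases (99.6%). Reads of the pair may be split between them by counting. Ftl1-ps1 had 242 CPM in flox and 41.4 CPM in cKO macrophage-like cells (-2.55) and was past the rule as lower in all 6 classes that tested it. It held 3.07% and 2.24% of the summed UMIs of the pair there, and with both rows summed the ratio was -2.09.

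**Figure D3:**
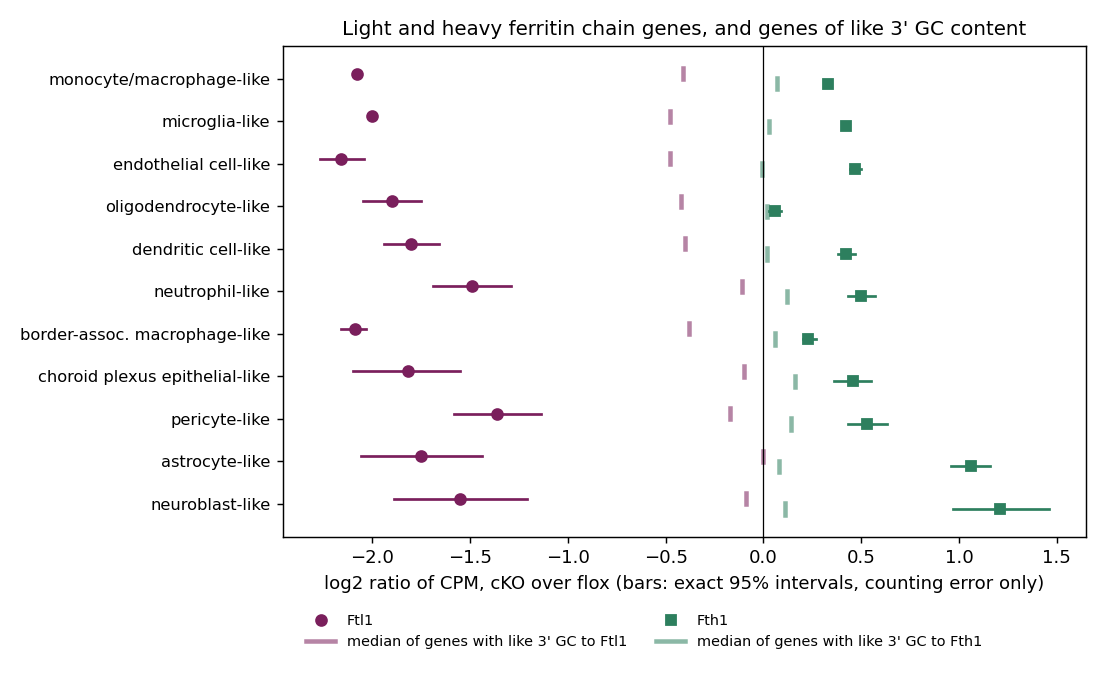
Log2 ratios (cKO over flox) of Ftl1 and Fth1 in the 11 compared classes with exact 95% intervals, and the median ratio of genes with like GC content in the last 500 nt of their transcripts (short vertical bars). Ftl1 lies left of the median of its GC bin in each class, with -1.67 for macrophage-like cells relative to it.

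Hmox1 (ENSMUSG00000005413) had a ratio above 0 in all 11 classes, with the interval above 0 in 7. Border-associated macrophage-like cells, where it was highest, differed little (0.13, 0.04 to 0.22), and microglia-like cells by 0.24 (0.20 to 0.29). Macrophage-like cells had 13004 and 22175 UMIs and a ratio of 0.73 (0.70 to 0.76), short of 2-fold. The macrophage-like clusters differed in it. The cluster led by Retnlg and Ankrd1 had 348 CPM (flox) and 927 CPM (cKO) (1.41, 1.25 to 1.58). It was the shallowest of the 7, with median totals of 3542 UMIs in flox and 2008.5 in cKO, and the only one of them that was shallower in cKO. Its markers scored 1.64 for border-associated macrophages and 1.45 for its own class (mean log2 fold over the median cluster), and the part of either in its Hmox1 ratio was not tested. Without this cluster the Hmox1 ratio of the class was 0.70 (0.67 to 0.73). Those led by Gpnmb and Fabp5 (538 and 855 CPM, 0.67) and by Fabp4 and Pdpn (653 and 1033.9 CPM, 0.66) were intermediate. Their scores for border-associated macrophages and for their own class were also close, at 1.77 and 1.72 in the first and 2.19 and 2.23 in the second. The cluster led by the monocyte genes Plac8 and Ccr2 had 180 and 196 CPM, with an interval that included 0 (0.12, -0.07 to 0.32). The largest flox macrophage-like cluster was that of Il10 and Cyp4f18 (24.2% of the class in flox, 16.8% in cKO) and the largest cKO one that of Gpnmb and Fabp5 (20.3% and 23.9%). In microglia-like cells the dividing cluster led by Top2a and Ccna2 had 244 and 348 CPM (0.51, 0.43 to 0.60), while the clusters led by Cd5l and Mmp12 (0.05) and by Siglech and Slc2a5 (-0.02) had intervals that included 0. The largest microglia-like cluster was that of Siglech and Slc2a5 in flox (39.0% and 23.3%) and that of Cd5l and Mmp12 in cKO (34.6% and 45%).

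The classes in which Hmox1 was past the rule were 3 where it was rare. Pericyte-like cells had 15 and 97 UMIs (31.9 and 129 CPM, 2.01, 1.22 to 2.90), in 10 and 27 cells. Astrocyte-like cells had 9 and 65 UMIs (31.2 and 113 CPM, 1.85, 0.84 to 3.04), in 5 and 24 cells. In both, the ratio stayed past the rule without the highest cell of each library, at 2.21 and 2.16. The astrocyte-like Hmox1 ratio was 0.85 at clustering resolution 0.5, 0.91 with equal weight per cell and 2.74 with doublets kept. Equal weight per cell gave 0.88 for Hmox1 in neuroblast-like cells. Neuroblast-like cells had 8 and 51 UMIs (2.0), of which 41 lay in 1 cKO cell, and without the highest cells the ratio was 0.65 (-1.14 to 2.78). The summed level of the 11 macrophage markers was 1431.3 and 1350.9 CPM in pericyte-like cells, with 1 marker at 0 in each library. It was 370 and 682 CPM in astrocyte-like cells (1 and 0 markers at 0) and 313 and 943 CPM in neuroblast-like cells (6 and 1 at 0). The border-associated macrophage markers summed to 147 and 230 CPM in pericyte-like, 58.8 and 98.7 CPM in astrocyte-like and 74.3 and 150 CPM in neuroblast-like cells, and the microglia markers to 7026.6 and 8950.4 CPM in pericyte-like cells. The microglia list, which includes Sparc, also summed to 8127.2 and 10785.9 CPM in endothelial cell-like cells, and the part of Sparc in these sums was not tested. The microglia markers summed to 2357.2 and 1921.8 CPM in astrocyte-like and 1544.7 and 1449.2 CPM in neuroblast-like cells. In each of the 3 classes at least 1 of these lists was thus higher in cKO and at least 1 lower. The part of these lists in the Hmox1 level was not tested. In thinned cells the shares with an Hmox1 UMI were 2.25% and 8.08% of pericyte-like cells and 0 of 34 (upper bound 10.3%) and 6.06% of astrocyte-like cells, with overlapping intervals.

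Haemoglobin UMIs, a trace of blood, were found in 13.6% of flox and 4.58% of cKO macrophage-like cells and in 14.2% and 4.56% of microglia-like cells, after barcodes with at least 1% haemoglobin UMIs had been left out. In flox macrophage-like cells Hmox1 stood at 464 CPM with and 414 CPM without a haemoglobin UMI, and in cKO at 582 and 704 CPM. Microglia-like cells had 378 and 324 CPM in flox and 572 and 386 CPM in cKO. In 3 of these 4 pairs the cells with haemoglobin were higher, and the pair in cKO macrophage-like cells went the other way. Cells with a haemoglobin UMI were also deeper in all 4 pairs. Their median UMIs were 11694 against 8500 in flox and 14201 against 13905 in cKO microglia-like cells. In macrophage-like cells the medians were 8804 against 7669 in flox and 11317 against 9699.5 in cKO. The largest Hmox1 difference, in cKO microglia-like cells, rested on 69 cells with a haemoglobin UMI. Of the 8282 Hmox1 UMIs of that class 305 lay in 1 cell, and the pair was not compared without it. The part of depth or of blood in the Hmox1 levels was not tested.

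Slc40a1 (ENSMUSG00000025993, chromosome 1, 45908068 to 45926523) was past the rule in 0 of the 5 classes with enough UMIs. Border-associated macrophage-like cells had 191 and 159 UMIs and a ratio of -0.50 (-0.81 to -0.19), and neutrophil-like cells -0.77 (-1.38 to -0.16). Microglia-like cells had a ratio of -0.23 (-0.38 to -0.09), but the 3 of its 4 clusters with enough cells for a ratio each had an interval that included 0. The level of Slc40a1 differed more between those clusters than between the libraries. The cluster led by Siglech and Slc2a5, in which markers of resting microglia such as P2ry12 and Sall1 lead, had 82.3 and 76.6 CPM, the one led by Cd5l and Mmp12 had 32.1 and 30.6 CPM and the dividing one 24.3 and 26.5 CPM. The first of these made up fewer of the microglia-like cells in cKO, as given above. Ftl1 was lowest in that first cluster, with 1853.7 CPM in flox against 6536.6 and 4904.2 CPM in the others. Cp was past the rule in 0 of 6 tested classes, with ratios from -0.22 to 0.49, and pericyte-like (-0.05, -0.25 to 0.15) and endothelial cell-like cells (-0.01, -0.14 to 0.13) had narrow intervals around 0.

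**Figure D4:**
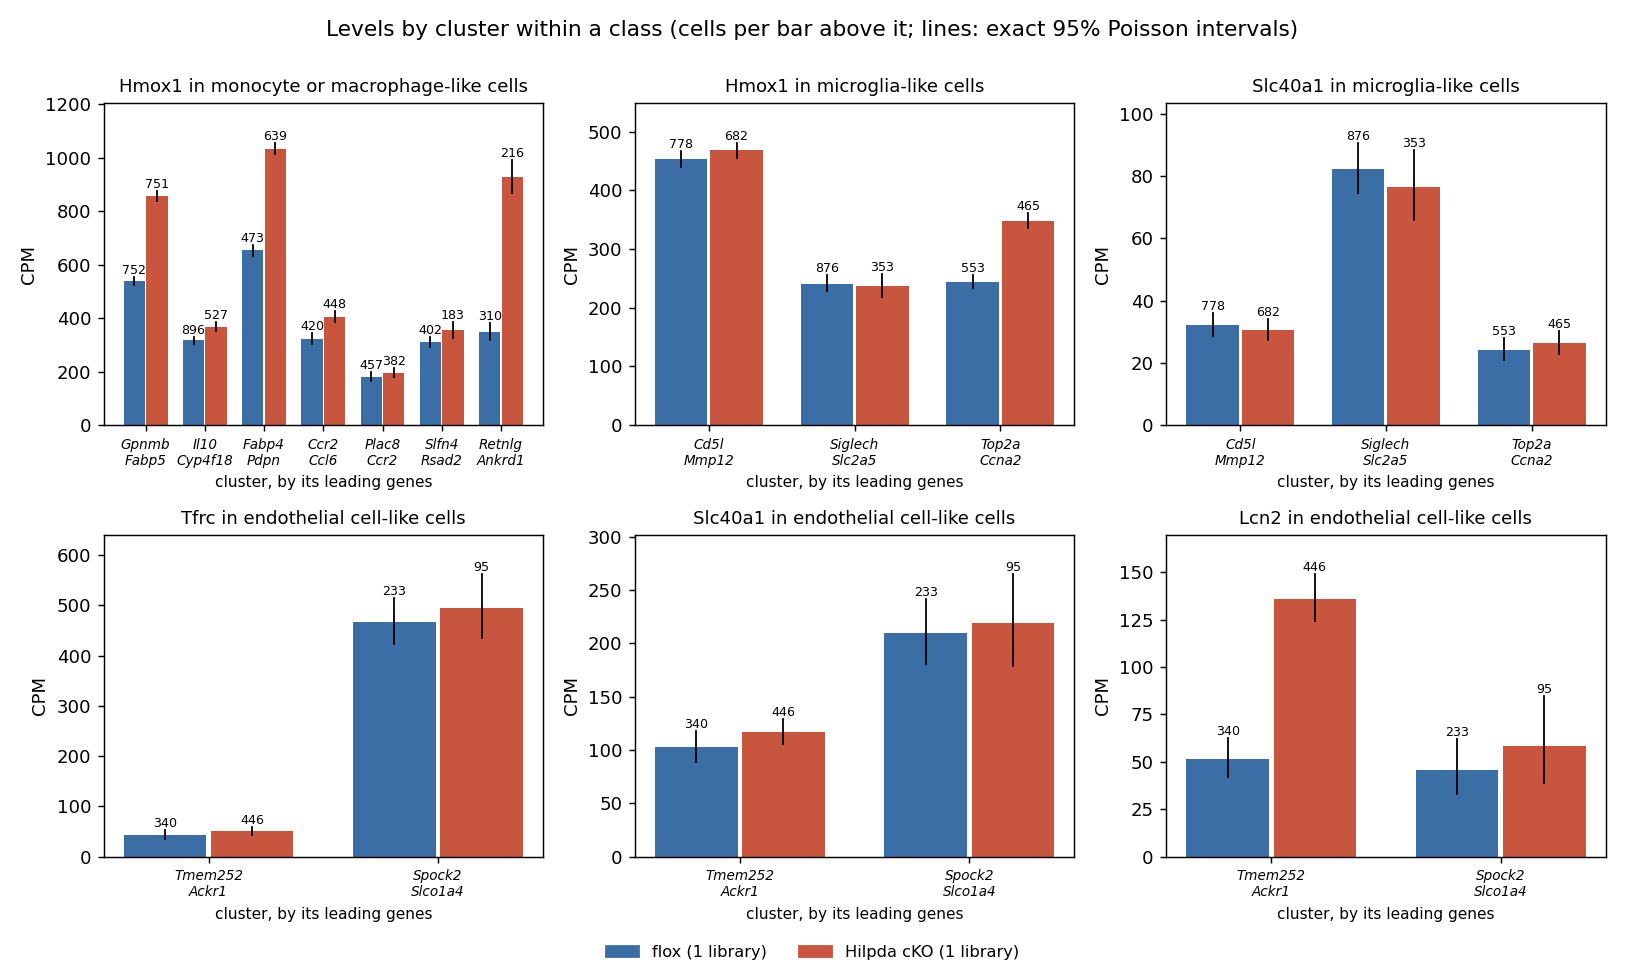
CPM by cluster within a class for Hmox1, Slc40a1, Tfrc and Lcn2, with 1 bar per library, exact 95% Poisson intervals (lines) and the number of cells above each bar; clusters are named by their 2 leading genes. Tfrc in endothelial cell-like cells is near 467 to 495 CPM in 1 cluster and 43.5 to 50 CPM in the other in both libraries.

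Tfrc (ENSMUSG00000022797, chromosome 16, 32608920 to 32632794) was lower in cKO endothelial cell-like cells by -0.75 on the log2 scale (-0.94 to -0.56, from 504 and 410 UMIs), yet in neither of the 2 clusters of that class. The cluster led by Spock2 and Slco1a4, a blood-brain barrier transporter gene, had 467 CPM (flox) and 495 CPM (cKO) (0.08, -0.15 to 0.32). The cluster led by Tmem252 and Ackr1, a venular gene, had 43.5 and 50 CPM (0.20, -0.18 to 0.59). The first held 40.7% of flox but 17.6% of cKO endothelial cell-like cells. The class ratio thus went with the share of the 2 clusters, and the ratios inside them had intervals that included 0. In macrophage-like cells Tfrc was 0.53 (0.39 to 0.68) and in the cluster led by Fabp4 and Pdpn 0.70 (0.43 to 0.98), from 30.4 and 49.5 CPM. Microglia-like (0.01, -0.17 to 0.20) and oligodendrocyte-like cells (0.03, -0.16 to 0.23) were close to equal. Dendritic cell-like cells were past the rule as lower, with 36 and 12 UMIs (29.2 and 9.26 CPM, -1.65, -2.73 to -0.68), spread over 31 and 11 cells. Trf was past the rule in 0 of 10 tested classes. Its ratio was -0.18 (-0.21 to -0.15) in oligodendrocyte-like cells as a whole. In endothelial cell-like cells it was -0.78 (-1.19 to -0.38, from 118 and 94 UMIs), with -0.74 (-1.19 to -0.29) in the cluster led by Tmem252 and Ackr1 and -1.60 (-3.14 to -0.33) in that led by Spock2 and Slco1a4.

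Slc11a1 was past the rule in 0 of 8 tested classes. Macrophage-like cells had 9627 and 11900 UMIs and a ratio of 0.26 (0.22 to 0.30), between 0.12 and 0.31 with an interval above 0 in each of the 7 clusters. Border-associated macrophage-like cells had a ratio of 0.55 (0.30 to 0.80), and microglia-like cells 0.02 (-0.06 to 0.09). Lcn2 had the most uneven pattern. Endothelial cell-like cells had 143 and 499 UMIs in 48 and 98 cells (1.35, 1.08 to 1.63) and were past the rule as higher, also without the highest cells (1.37). With equal weight per cell the Lcn2 ratio was 0.43. The difference lay in the venular-type cluster led by Tmem252 and Ackr1 (51.6 and 136 CPM, 1.40, 1.09 to 1.72), while the other cluster had 45.8 and 58.5 CPM (0.35, -0.40 to 1.08). The thinned share of endothelial cell-like cells with a Lcn2 UMI was 3.31% and 4.56%, with overlapping intervals. The 10 neutrophil markers summed to 24.4 and 13.2 CPM in that class, and the part of neutrophils in its Lcn2 level was not tested. Neutrophil-like cells went the other way, at -0.70 (-0.92 to -0.49), and their 10 markers also had a lower sum in cKO, at 32571.4 and 23170.1 CPM. Astrocyte-like cells had 0.06 (-0.41 to 0.55), with those 10 markers at 38.1 and 111 CPM and 7 and 5 of them at 0. Choroid plexus epithelial cell-like cells had 0 and 37 UMIs, at least 4.70-fold higher in cKO against a floor of 3 counts in the flox library, but 29 of the 37 lay in 1 cell and the remaining 8 UMIs were not past the rule.

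A wider list of 48 genes that move, sense or use iron and haem was set beside the 9. In macrophage-like cells 36 were tested, of which 1 was past the rule as higher and 1 as lower, and in microglia-like cells 34 were tested, with 0 higher and 1 lower, at the shares of all features given above. Lrp1, a receptor that among other ligands takes up haem bound to haemopexin, was lower in both, at 519 and 162 CPM in macrophage-like (-1.68, -1.72 to -1.63) and 398 and 101 CPM in microglia-like cells (-1.98, -2.05 to -1.91), and in 9 of the 9 classes that tested it. Lrp1 is given without the median of genes with like 3′ GC, and the part of base composition was not tested. Cd163, the haemoglobin-haptoglobin receptor, was higher in macrophage-like cells from only 24 and 58 UMIs (1.23, 0.52 to 1.98), which is under 2 CPM in each library. The median ratio of the list was 0.08 for macrophage-like cells and 0.13 for microglia-like ones.

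By role, 0 of 10 genes of haem breakdown and haem handling were past the rule in either class. Slc48a1, which moves haem out of the lysosome, stood at 144 and 224 CPM in macrophage-like (0.64, 0.59 to 0.69) and 71.4 and 96.4 CPM in microglia-like cells (0.43, 0.34 to 0.53), and Bach1, a haem-sensing repressor of Hmox1, had 0.21 in both. Among 6 tested genes of uptake and endosomal transport, 0 were past the rule, and the most counted were Steap3, a ferric reductase (0.02 and 0.40), Mcoln1, a lysosomal cation channel (0.12 and 0.17), and the metal importers Slc39a14 (0.13 and -0.30) and Slc39a8 (0.03 and -0.03). Of the 6 genes of export and its control, 1 had enough UMIs, Hfe, which restrains transferrin receptor and signals to hepcidin (0.22 and 0.19). Of the storage genes, the iron chaperones Pcbp1 (0.09 and 0.14) and Pcbp2 (-0.12 and -0.13) were near equal, and Ncoa4, the receptor that sends ferritin to the lysosome, had -0.21 and -0.43. All 6 iron sensing genes were tested and 0 were past the rule, with Hif1a (0.04 and -0.21) and Nfe2l2 (-0.09 and 0.04), the latter an activator of Hmox1 and ferritin genes, the most abundant. The iron regulatory protein genes Aco1 (0.09 and 0.18) and Ireb2 (0.00 and -0.20) also differed little. Of 7 genes for mitochondrial iron and iron-sulphur clusters, 0 were past the rule. Iscu, the scaffold on which clusters form, had 0.30 and 0.29, and Glrx5, which passes them on, had 0.62 (0.55 to 0.70) and 0.59 (0.49 to 0.69). For 2 listed genes of extracellular binding, Ltf and Alb, under 30 UMIs were counted in either class.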

How the data were processed

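The authors deposited raw UMI counts for each gene and barcode, which were whole numbers in the files. Per the submitters' processing notes, CASAVA 1.8, STARsolo, Seurat and mm10 were used; annotation, counting settings and cell calling were not given in the sources used here. No barcode had under 500 UMIs. Cells needed at least 500 UMIs, 200 genes and at most 25% mitochondrial UMIs. Scrublet (scanpy 1.11.5, expected rate 6%) removed 184 flox and 161 cKO doublets. Barcodes with at least 1% haemoglobin (62 and 20) or mast cell marker UMIs (0 and 1) were left out, a step chosen after the data were seen.

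Each cell was scaled to 10000 UMIs on a log scale. From 2000 variable genes, without the 9 iron genes, Ftl1-ps1, Hilpda and sex-linked, mitochondrial, ribosomal and haemoglobin genes, 30 components and 20 neighbours were taken for Leiden clustering (leidenalg 0.10.2, resolution 1). Clusters were named "-like" from at least 3 markers at 2-fold or more over the median cluster. A cluster that scored highest for border-associated macrophages was named monocyte or macrophage-like unless that score led the macrophage score by at least 1. Naming thresholds were revised after clusters were seen. UMIs were summed per class and library (CPM). Levels have exact Poisson, shares exact Clopper-Pearson and ratios exact conditional intervals; a library at 0 was set to a floor of 3 counts. Without replicates no test was made. Shares used cells thinned to 1000 UMIs, leaving out shallower ones (84 flox and 64 cKO neutrophil-like, 36 and 38 astrocyte-like cells). The 3′ GC content came from the last 500 nt of transcripts, in bins of 5 points. Calculations were tested on simulated counts. The genes, lists and markers were chosen with earlier results of these data known. Named genes were the 9, Ftl1-ps1, list genes past the rule, the 2 most counted per role, and those most like each of the 9. Ncoa4, Aco1, Ireb2, Ltf and Alb fall outside that rule and were chosen after their values were seen; other genes only label clusters. Alternatives were cell filters, doublets, resolution, scaling (TMM, edgeR 4.0.16), cell weight, count limits, a direct marker gate, GC correction, the Ftl1 copy, and, chosen after seeing the data, leaving out the highest cell or the shallowest macrophage-like cluster.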

Additional observations from a re-analysis of the deposited data

How the results depend on the processing

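Of 20 ratios past the size rule (all cells included), 20 kept their sign with TMM scaling, resolutions 0.5 and 2, the iron genes among the clustering genes and the correction for 3′ GC. Fth1 in neuroblast-like cells reversed, to -0.33 with called doublets kept and -0.22 with a direct marker gate. At most 10% mitochondrial UMIs left 10 of the 20 ratios, all with their sign. Counts of iron genes past the rule went from 1 to 2 in macrophage-like cells with the direct gate, to 3 there with a 1.5-fold limit, and to 2 over all cells with that limit. Of the 48 listed genes, the macrophage-like count went from 2 to 1 with at least 100 CPM, the direct gate and equal cell weight. The microglia-like count went from 1 to 3 with no minimum of UMIs. The share of all features was counted for the main and 1.5-fold limits only, so the other changed counts have none beside them. The cause of these changes was not tested. TMM shifted endothelial cell-like ratios the most, by 0.14 upward. Without the cell with the most UMIs of the gene in each library, an alternative chosen after seeing the data, 16 of 19 ratios within classes stayed past the rule. Without the cluster led by Retnlg and Ankrd1, also chosen after seeing the data, 1 iron gene was past the rule in macrophage-like cells, as with it. No paired analysis was possible because each group has 1 library. Depth limits the small classes: astrocyte-like cells had median totals of 965.5 and 1460 UMIs.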
